A study of Mus musculus with 8 samples.

Results

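The integrin and laminin genes are the receptors and one of the main ligands of the basement membrane. Members were the rows whose gene symbol is an integrin alpha subunit (Itga), an integrin beta subunit (Itgb) or a laminin alpha, beta or gamma chain (Lama, Lamb, Lamc). The rule took 38 of 50600 rows, 27 of them integrins and 11 laminins, and these carried 37 symbols because Itgam was listed under 2 identifiers. RNA was sequenced from C57BL/6 mouse embryonic fibroblasts that had all received Gata4, Hand2, Mef2c and Tbx5 by retroviral transduction (GHMT), a cocktail used to turn fibroblasts into cells with cardiomyocyte features. Treatment lasted 7 days and was 0.1% ethanol, 1% DMSO, 5 µM I-CBP112 or 5 µM C646, with 2 libraries in each of the 4 groups. I-CBP112 is an inhibitor of the acetyl-lysine binding bromodomain of the coactivators CBP and p300, and C646 is an inhibitor of the acetyltransferase activity of the same proteins. All 4 groups carried the transcription factors, so the comparisons are among treatments of transduced cultures. The labels number the libraries of every group as replicates 2 and 3 and hold no other number. Whether an equal number marks a shared culture or run is not given. The solvent of either inhibitor, and whether the 2 libraries of a group came from separate cultures, are not given in the sources used here, and p-values therefore measure the spread between these libraries, which may be technical.

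An integrin is a heterodimer of one alpha and one beta subunit that spans the membrane, holds on to the extracellular matrix outside the cell and is tied to actin through talin, kindlin and other adaptors inside it. The alpha subunit largely sets the ligand, so that alpha subunits can be grouped as receptors for laminins, for collagens, for proteins with an RGD motif such as fibronectin and vitronectin, and for the cell surface ligands of leukocytes. A laminin is a cross-shaped trimer of an alpha, a beta and a gamma chain that polymerises into the sheet of the basement membrane, and muscle cells hold to it through laminin-binding integrins and the dystroglycan complex.

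The deposited tables give, for each gene, the mean normalised count over the libraries and a log2 fold change for each treatment, but no value per library. Read with ethanol as the common reference, they give the mean of each group, which is called the level below and is in normalised counts. An adjusted p (Benjamini-Hochberg) under 0.05 is called past the test. The DMSO and I-CBP112 tables hold an adjusted p for 14830 of the 34250 genes with counts. Of the members, 29 had one, 18 integrins and all 11 laminins. The other 9 rows, Itga2, Itgad, Itgae, Itgal, both Itgam rows, Itgax, Itgb6 and Itgb7, had mean counts under 26.1, which was the lowest mean count of any gene given an adjusted p by the DMSO table. Markers of fibroblasts summed to 970217 normalised counts with ethanol and 650586 with DMSO, and 583745 with I-CBP112 and 956332 with C646, and all 9 were present. Cardiomyocyte markers summed to 109624, 307316, 300850 and 111073 in the same order. Smooth muscle markers summed to 126991, 87262, 130452 and 125291. Endothelial markers summed to 1202, 732, 803 and 1175, and epithelial markers to 121, 40.9, 41.3 and 118. Leukocyte markers summed to 3085 to 3759, and platelet markers and Schwann and neural crest markers to 89.1 to 202. No marker of any list was at 0. With DMSO and with I-CBP112 alike, 6 of 9 tested fibroblast markers passed as lower. So did 1 of 4 tested endothelial markers and the 1 tested epithelial marker, of 8 listed in each. Cardiomyocyte markers passing as higher were 7 of 8 with DMSO and 8 of 8 with I-CBP112. Over all tested genes, 7.90% passed as lower with DMSO and 5.25% with I-CBP112, and 8.07% and 4.65% as higher. The fibroblast, endothelial and epithelial sums were lower and the cardiomyocyte sum was higher with both DMSO and I-CBP112, and the smooth muscle sum was lowest with DMSO. These sums moved with the member changes described next, and their part in them was not tested. In RNA from a whole culture, fewer cells of a type and less RNA per cell cannot be told apart.

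Per kilobase of the longest annotated transcript, Itgb1 was the highest beta and Itga8 the highest alpha subunit in the cultures with ethanol. Itgb1, the partner of most alpha subunits, stood at 13779 normalised counts per kilobase. Itgb5, a partner of the alpha v subunit, followed at 4569. Itga8, a receptor for nephronectin and fibronectin in mesenchyme, stood at 3334, ahead of Itgav at 1331, Itga7 at 625 and Itga5, the fibronectin receptor, at 486. The order of Itga7 and Itga5 turned with the length used: per kilobase of the union of exons they stood at 310 and 435. Among laminins, Lamc1 stood at 2797, Lamb2 at 2738, Lamb1 at 2396, Lama2 at 1848 and Lama4 at 1631 per kilobase, while Lama3 and Lamb3, chains of the epithelial laminin, were below all of these. Without values per library, neighbours in this order, such as Lamc1 and Lamb2, have no test of their difference.

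**Figure D1:**
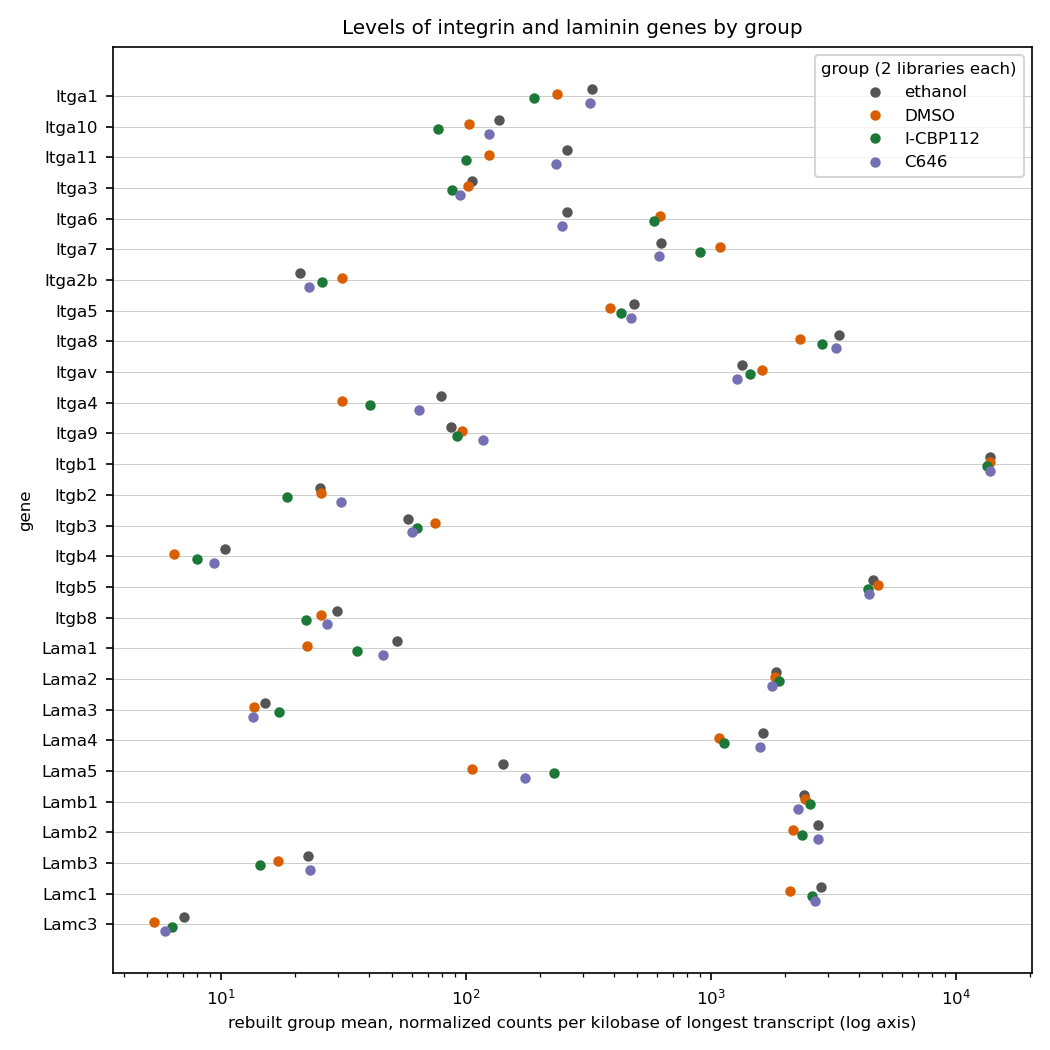
Level of tested integrin and laminin genes in the 4 groups, as the mean normalised count per kilobase of the longest transcript on a log axis. Points are group means of 2 libraries rebuilt from the deposited values, with no spread per library. Itgb1 is highest at 13779 with ethanol, and the points of DMSO and I-CBP112 lie right of the other groups for Itga6 and Itga7.

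Against ethanol, DMSO moved 9 of the 29 tested members past the test (31.0%), beside 16.0% of all 14830 genes. Itga6 and Itga7 rose and Itga1, Itga11, Itga4, Itga8, Lama4, Lamb2 and Lamc1 fell, that is 2 higher beside a background of 8.07% and 7 lower beside 7.90%. The median log2 fold change was -0.22 over the 29 members and 0.03 over all tested genes. I-CBP112 moved 7 of the 29 (24.1%), beside 9.90% of all genes. Itga6 and Itga7 rose (background 4.65%), and Itga1, Itga10, Itga11, Itga4 and Lama4 fell (background 5.25%). The median was -0.16 over the members and 0.01 over all tested genes. C646 moved 0 of 38 members past the test by DESeq2, beside 0.00584% of all 34250 genes. Before adjustment, 2 members had a DESeq2 p under 0.05, and the share of all genes at that threshold is not given here. All 3 comparisons share the ethanol libraries. The deposited p-values take each gene's spread as known, and when the same statistics were read against a t distribution with 4 degrees of freedom no member passed in any comparison, and of all 14830 genes 1 passed for DMSO against ethanol and 0 in the other comparisons. Without adjustment, 9 members with DMSO and 7 with I-CBP112 had a p under 0.05 by that reading. The share of all genes at that threshold is not given here either, and these counts are not read as a result about the members.

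**Figure D2:**
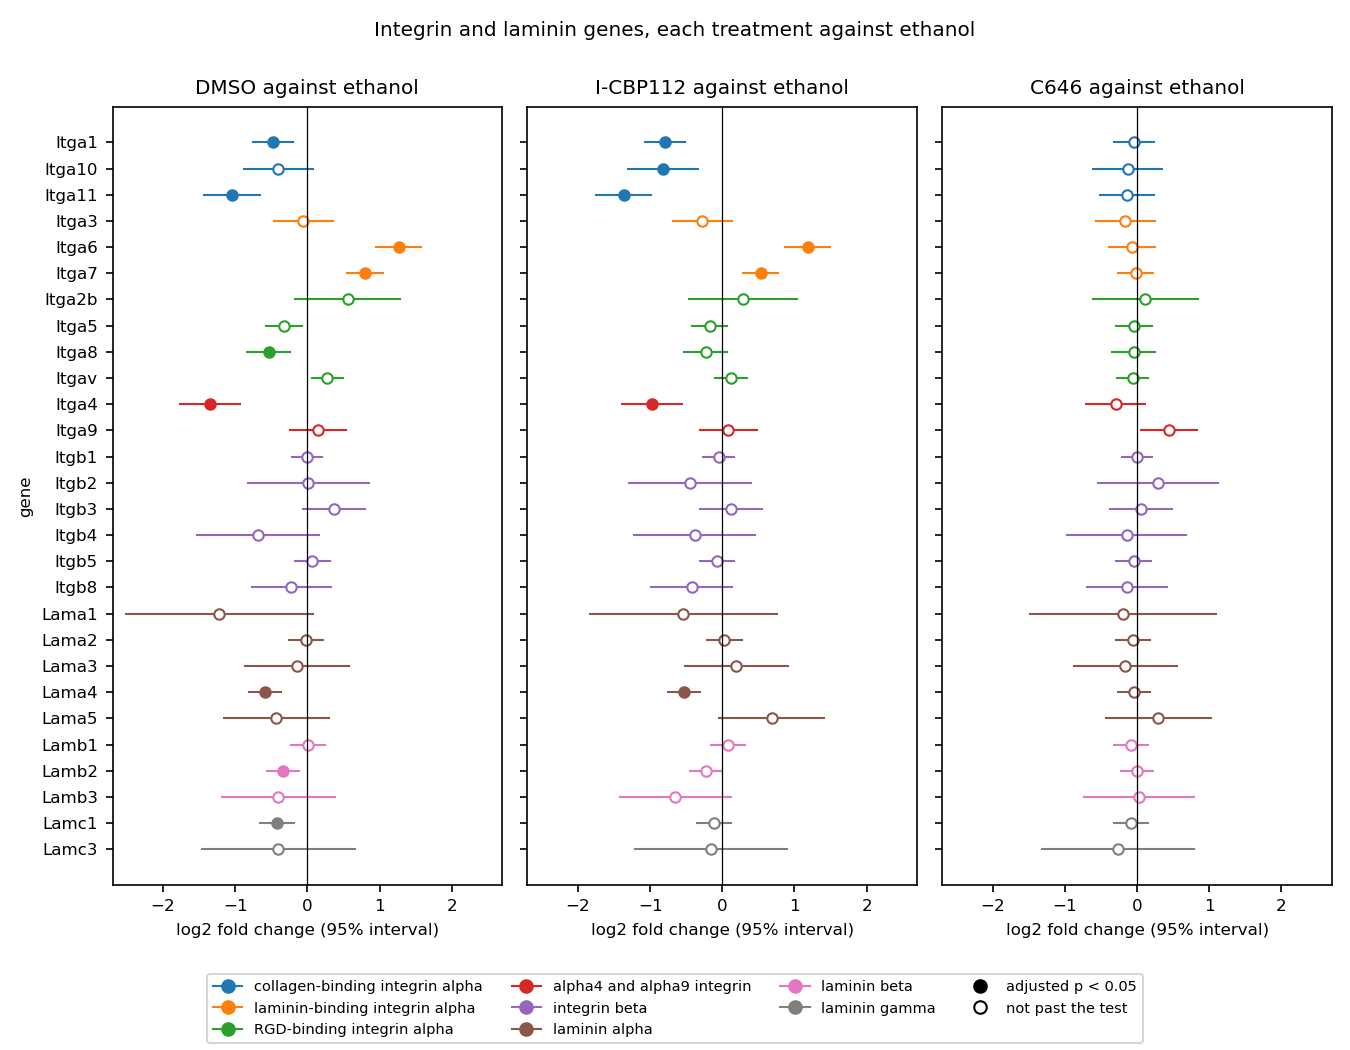
log2 fold change of tested members for DMSO, I-CBP112 and C646 against ethanol, with its normal 95% interval, coloured by the kind of subunit. Filled points have an adjusted p under 0.05. The 2 rising members are the laminin-binding subunits Itga6 and Itga7, and the C646 panel holds no filled point.

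The members that rose, Itga6 and Itga7, are both laminin-binding alpha subunits. Itga6, a receptor for laminins in many tissues, stood at 1114 normalised counts with ethanol and 2674 with DMSO, and 2527 with I-CBP112 and 1058 with C646. In the authors' deposited table the log2 fold change was 1.26 ± 0.16 (SE) with DMSO, a 2.40-fold rise (DESeq2 adjusted p = 2.69e-13). It was 1.18 ± 0.16 with I-CBP112 in the authors' deposited table, a 2.27-fold rise (DESeq2 adjusted p = 1.84e-11). DMSO and I-CBP112 were thus the high groups and ethanol and C646 the low ones. Itga7, the main laminin-binding alpha subunit of skeletal and cardiac muscle, stood at 2511 with ethanol and 4360 with DMSO, and 3631 with I-CBP112 and 2474 with C646. The authors' deposited table gave 0.80 ± 0.13 with DMSO (DESeq2 adjusted p = 1.25e-08) and 0.53 ± 0.13 with I-CBP112 (DESeq2 adjusted p = 0.000605). In GENCODE M21 on GRCm38, Itga6 (ENSMUSG00000027111.15) lies on chromosome 2, from 71745616 to 71858416 on the plus strand, and Itga7 (ENSMUSG00000025348.9) lies on chromosome 10, from 128933818 to 128958282 on the plus strand. The third of them, Itga3, a laminin receptor of epithelia, did not pass: its level was 515.2, 496.4, 426.0 and 459.7 in the order ethanol, DMSO, I-CBP112 and C646.

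Of the collagen-binding alpha subunits, Itga11 and Itga1 fell with both DMSO and I-CBP112. Itga11, a receptor for fibrillar collagen on fibroblasts, stood at 1277 normalised counts with ethanol and 618.6 with DMSO, and 494.6 with I-CBP112 and 1156 with C646. Its log2 fold change in the authors' deposited table was -1.05 ± 0.20 with DMSO (DESeq2 adjusted p = 2.85e-06) and -1.37 ± 0.20 with I-CBP112 (DESeq2 adjusted p = 3.90e-10). Itga1, a receptor for collagen IV and other collagens, stood at 3596, 2580, 2075 and 3496 in the order ethanol, DMSO, I-CBP112 and C646. The authors' deposited table gave -0.48 ± 0.14 with DMSO (DESeq2 adjusted p = 0.00793) and -0.79 ± 0.14 with I-CBP112 (DESeq2 adjusted p = 1.74e-06). Both genes were lowest with I-CBP112. Itga10, a collagen receptor best known in cartilage, stood at 685.1, 518.2, 388.7 and 624.8. It passed with I-CBP112 in the authors' deposited table (-0.82 ± 0.25, DESeq2 adjusted p = 0.0133) and missed with DMSO (-0.40 ± 0.25, adjusted p = 0.301). The direct difference between the 2 treatments was -0.42 ± 0.25, with a 95% interval of -0.90 to 0.07, so that the treatments were not shown to differ for Itga10. Itga2, the remaining collagen-binding subunit, had levels of 17.3 to 34.0 and no adjusted p. Itga11 (ENSMUSG00000032243.8) lies on chromosome 9, from 62677826 to 62783982 on the plus strand. Itga1 (ENSMUSG00000042284.9) lies on chromosome 13, from 114953096 to 115101964 on the minus strand. Itga10 (ENSMUSG00000090210.7) lies on chromosome 3, from 96645584 to 96664519 on the plus strand. Itga1 and Itga2 are neighbours on chromosome 13, 21.0 kb apart. All 3 tested members of the class passed as lower with I-CBP112 (background 5.25%) and 2 of the 3 with DMSO (background 7.90%).

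Itga4, which binds VCAM1 and an alternatively spliced part of fibronectin, stood at 774.2 with ethanol and 304.8 with DMSO, and 394.9 with I-CBP112 and 628.7 with C646. The authors' deposited table gave -1.34 ± 0.21 with DMSO (DESeq2 adjusted p = 1.15e-08) and -0.97 ± 0.21 with I-CBP112 (DESeq2 adjusted p = 0.000133). Itga4 (ENSMUSG00000027009.18) lies on chromosome 2, from 79255426 to 79333123 on the plus strand. Itga9, its closest relative among alpha subunits, did not pass in these tables. Its levels were 608.8, 673.0, 645.8 and 825.4 in the order ethanol, DMSO, I-CBP112 and C646, the highest being with C646.

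The promoters of 3 members that fell with both DMSO and I-CBP112, and of Itgb1 as a member with a level near constant across groups, are shown to let their sequence be compared. They are RefSeq sequences of GRCm38.p6, 5′ to 3′ on the strand of the gene, from the 250 bases before the RefSeq start, of which 29 bases annotated as Itga11 exon in GENCODE M21 were removed from the end of the Itga11 window. Capitals mark matches, on either strand, to any of 8 motifs.
Itga11 chr9:62677605-62677825 (+ strand): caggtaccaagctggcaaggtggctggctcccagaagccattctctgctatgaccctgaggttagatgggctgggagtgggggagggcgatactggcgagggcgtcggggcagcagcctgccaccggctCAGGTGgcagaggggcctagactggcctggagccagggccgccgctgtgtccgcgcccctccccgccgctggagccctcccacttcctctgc
Itga1 chr13:115101965-115102214 (- strand): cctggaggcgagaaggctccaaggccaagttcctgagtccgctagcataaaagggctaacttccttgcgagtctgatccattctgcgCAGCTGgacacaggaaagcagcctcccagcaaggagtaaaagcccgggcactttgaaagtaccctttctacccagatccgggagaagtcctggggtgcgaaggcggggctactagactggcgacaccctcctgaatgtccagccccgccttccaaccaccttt
Itga4 chr2:79255176-79255425 (+ strand): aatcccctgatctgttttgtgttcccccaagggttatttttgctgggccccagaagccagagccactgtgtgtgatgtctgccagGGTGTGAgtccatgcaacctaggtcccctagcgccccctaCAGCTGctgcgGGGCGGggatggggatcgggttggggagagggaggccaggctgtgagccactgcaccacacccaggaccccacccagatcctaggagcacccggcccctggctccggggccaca
Itgb1 chr8:128685404-128685653 (+ strand): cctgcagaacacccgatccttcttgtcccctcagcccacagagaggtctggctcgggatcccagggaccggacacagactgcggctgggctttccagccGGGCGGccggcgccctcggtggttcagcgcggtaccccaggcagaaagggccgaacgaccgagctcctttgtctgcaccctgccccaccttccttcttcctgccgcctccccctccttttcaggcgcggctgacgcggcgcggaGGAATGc
The motifs were the GATA site AGATAA (in 9.99% of 32851 promoter windows of 250 bases), the E-box CANNTG (66.2%), the T-box site GGTGTGA (3.33%), the TEAD site GGAATG (12.6%), the AP-1 site TGANTCA (6.75%), the SP1 box GGGCGG (32.7%), the TATA box TATAAA (12.4%) and the MEF2 site (3.20%). No 2 matches shown overlap each other. Positions count back from the RefSeq start. Itga11 held 1 E-box at -121 to -116 and Itga1 held 1 E-box at -163 to -158. Itga4 held a T-box match at -165 to -159, an E-box at -125 to -120 and an SP1 box at -114 to -109. Itgb1 held an SP1 box at -151 to -146 and a TEAD match at -7 to -2, and no E-box. A match is only a run of letters in this window, and the E-box occurs in most promoters. Promoter entries were matched for 23 of the 37 symbols; the others included Itga6, Itga7, Itgad, Itgae, Itgal, Itgb2, Itgb3, Itgb4, Lama1, Lama3, Lama4, Lamc1 and Lamc3.

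Among the RGD-binding alpha subunits, Itga8 alone passed, in the DMSO table. It stood at 19375 normalised counts with ethanol and 13344 with DMSO, and 16498 with I-CBP112 and 18722 with C646. The authors' deposited table gave -0.54 ± 0.15 with DMSO (DESeq2 adjusted p = 0.00440) and -0.23 ± 0.15 with I-CBP112 (adjusted p = 0.450). The difference of I-CBP112 from DMSO was 0.31 ± 0.15 (adjusted p = 0.267), so that a treatment difference was not shown. Itga8 (ENSMUSG00000026768.10) lies on chromosome 2, from 12106632 to 12301922 on the minus strand. An antisense gene, E030013I19Rik, shares 372 exon bases with Itga8 at a mean of 845.6 normalised counts, and it fell with DMSO in the authors' deposited table (-0.88 ± 0.20, DESeq2 adjusted p = 0.000253). Whether counting used strand is not given, so reads from the shared bases cannot be assigned to one gene. Itga5 and Itgav, receptors for fibronectin and vitronectin, had an unadjusted p under 0.05 with DMSO but missed after adjustment. The authors' deposited table gave Itga5 -0.33 ± 0.13 (adjusted p = 0.0588) and Itgav 0.28 ± 0.11 (adjusted p = 0.0703). Per kilobase, Itgav stood at 1331, 1615, 1446 and 1274 in the order ethanol, DMSO, I-CBP112 and C646. Itga2b, the platelet alpha subunit, was at 72.4 to 106.6 normalised counts and did not pass.

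Of the 6 tested beta subunits, 0 passed against ethanol by DESeq2, beside 16.0% of all tested genes with DMSO and 9.90% with I-CBP112. An unadjusted p under 0.05 was found for 0 of them, and the share of all genes at that threshold is not given here. With 6 genes, a count of 0 lies near these shares and is not read as a result about the class. Itgb1 was 52566 normalised counts with ethanol and 52366 with DMSO, and 50819 with I-CBP112 and 52490 with C646. In the authors' deposited table its log2 fold change was -0.01 ± 0.11 with DMSO, with a 95% interval of -0.22 to 0.21. Itgb1 took 74.6% of the summed beta level per kilobase with ethanol and 73.5% with DMSO, and 74.9% with I-CBP112 and 75.2% with C646. Itgb5, Itgb3, Itgb8, Itgb2 and Itgb4 followed it, in that order of level per kilobase with ethanol. The 2 untested beta subunits were Itgb6, at 20.0 to 30.3, and Itgb7, at 4.38 to 10.9. The alpha subunits of leukocyte integrins, Itgad, Itgae, Itgal, Itgam and Itgax, had levels of 0.197 to 25.4 normalised counts and no adjusted p in the DMSO and I-CBP112 tables. They took 0.131% of the alpha level per kilobase with ethanol and 0.162%, 0.171% and 0.143% with DMSO, I-CBP112 and C646.

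Of the 5 laminin alpha chains, Lama4, a chain of vessel and heart basement membranes, passed with both treatments. Its levels were 9859 with ethanol and 6537 with DMSO, and 6801 with I-CBP112 and 9568 with C646. The authors' deposited table gave -0.59 ± 0.11 (DESeq2 adjusted p = 4.46e-06) with DMSO and -0.54 ± 0.11 (DESeq2 adjusted p = 7.26e-05) with I-CBP112. The endothelial marker sum, 1202 with ethanol, was also lower in these groups, at 732 and 803. So was the much larger fibroblast marker sum, at 650586 and 583745 beside 970217 with ethanol. A link of Lama4 to either sum was not tested. Lama2, the alpha chain of muscle laminin, was 17768 normalised counts with ethanol and 17589 with DMSO, and 18149 with I-CBP112 and 17104 with C646, and its fold change stayed within its error in all 3 tables. Lama4 (ENSMUSG00000019846.11) lies on chromosome 10, from 38965515 to 39110188 on the plus strand. DMSO and I-CBP112 thus had less Lama4 beside a Lama2 level within its error, and the ratio of Lama4 to Lama2 per kilobase was 0.882 with ethanol and 0.591 with DMSO, and 0.596 with I-CBP112 and 0.890 with C646. Lama5, a chain of epithelial and adult basement membranes, stood at 1615, 1200, 2598 and 1977 in the order ethanol, DMSO, I-CBP112 and C646, and it passed with no treatment against ethanol. Its spread was large, with a fitted coefficient of variation between libraries of 25.6%, above that of 98.3% of 2690 genes of like count. Lama5 (ENSMUSG00000015647.9) lies on chromosome 2, from 180176373 to 180225859 on the minus strand. Lama1, an embryonic chain, spread most, at 45.5%, above 99.5% of 2208 genes of like count, and its levels were 497.5, 213.3, 342.6 and 434.2. The median of the 29 members was 13.2%, and that of all tested genes 12.2%. Lama3 stood at 141.6 to 181.9 and did not pass.

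Lamb2 and Lamc1, chains that join alpha chains in the trimers of muscle and vessel walls, fell with DMSO. Lamb2 stood at 15413 normalised counts with ethanol and 12152 with DMSO, and 13235 with I-CBP112 and 15414 with C646. The authors' deposited table gave -0.34 ± 0.11 with DMSO (DESeq2 adjusted p = 0.0200) and -0.22 ± 0.11 with I-CBP112 (adjusted p = 0.266). Lamc1 stood at 21322 normalised counts with ethanol and 15986 with DMSO, and 19653 with I-CBP112 and 20187 with C646. The authors' deposited table gave -0.42 ± 0.12 with DMSO (DESeq2 adjusted p = 0.00591) and -0.12 ± 0.12 with I-CBP112 (adjusted p = 0.720). The I-CBP112 to DMSO difference was 0.12 ± 0.11 for Lamb2 (adjusted p = 0.672) and 0.30 ± 0.12 for Lamc1 (adjusted p = 0.125), and neither was past the test. Lamb2 (ENSMUSG00000052911.9) lies on chromosome 9, from 108479736 to 108490530 on the plus strand. Lamc1 (ENSMUSG00000026478.14) lies on chromosome 1, from 153218922 to 153332786 on the minus strand. The smooth muscle marker sum, like Itga8, Lamb2 and Lamc1, was lower with DMSO, at 87262 beside 126991 with ethanol. The fibroblast and endothelial sums were lower with DMSO too, and a link of these genes to any sum was not tested. Lamb1, the alternative beta chain, had an interval of -0.22 to 0.24 with DMSO. Lamb3 and Lamc3 were at 31.3 to 111.8 normalised counts and did not pass.

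Read as shares of the summed alpha level per kilobase, the laminin-binding class took 14.0% with ethanol and 26.8% with DMSO, and 23.1% with I-CBP112 and 14.0% with C646. The collagen-binding class took 10.2%, 6.93%, 5.40% and 9.97% in the same order. The ratio of the laminin-binding to the collagen-binding class was therefore 1.37 with ethanol and 3.87 with DMSO, and 4.28 with I-CBP112 and 1.41 with C646. With the length taken from the union of exons, the laminin-binding shares were 10.1%, 19.9%, 16.7% and 10.0% and the collagen-binding ones 11.1%, 7.84%, 5.95% and 10.7%. The order of the 2 classes with ethanol and with C646 thus turned with the length used, and the order with DMSO and I-CBP112 did not. The RGD-binding class took 73.3%, 64.2%, 69.4% and 73.2%, most of it Itga8. The ratio of Itga6 to Itga4 per kilobase was 3.26, 19.9, 14.5 and 3.82. These 2 genes had the largest rise and the largest fall with DMSO among the passing members. The wide change of their ratio follows from that choice of pair and is no further result. Shares and ratios are built from group means and carry no error of their own.

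**Figure D3:**
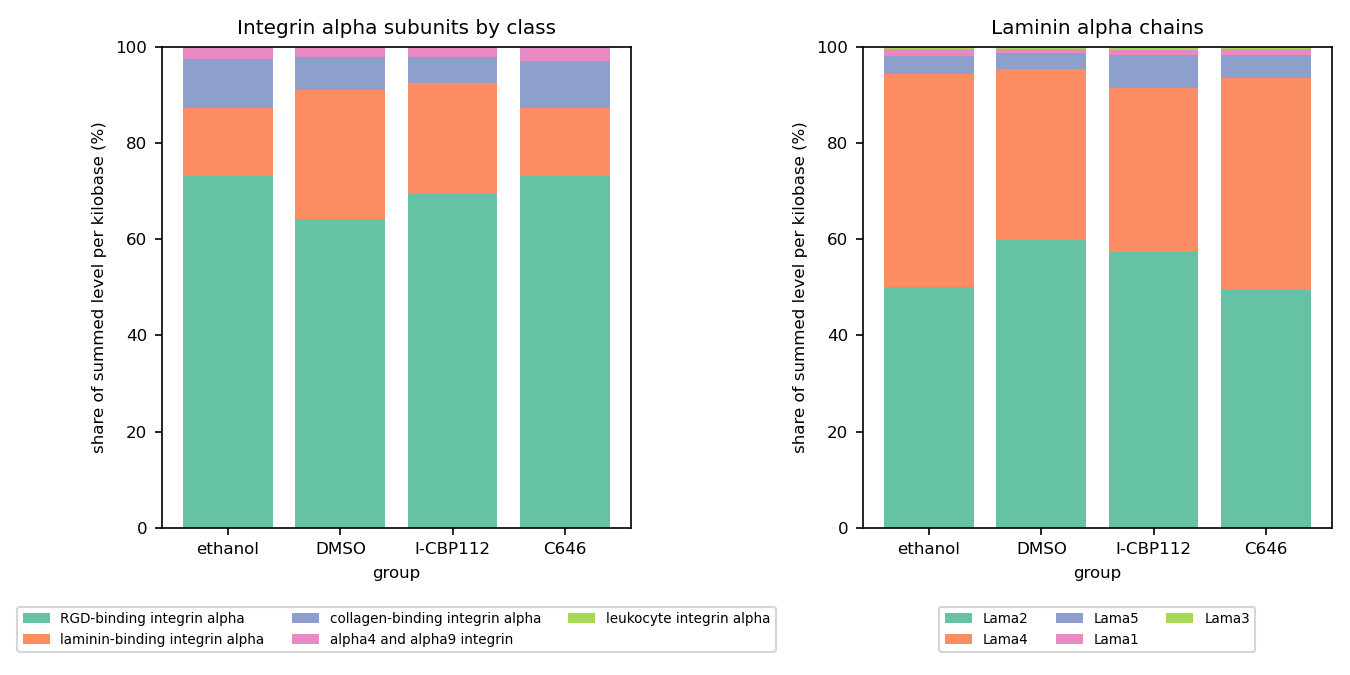
Left, share of the summed level per kilobase of all integrin alpha subunits taken by each ligand class in each group; right, the same for the 5 laminin alpha chains, both in percent. The laminin-binding band widens from 14.0% with ethanol to 26.8% with DMSO and 23.1% with I-CBP112, and Lama4 narrows from 44.2% to 35.4% and 34.1%.

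C646 left all members short of the test. Every adjusted p of the 38 rows was 1, and 2 members had an unadjusted p under 0.05, Itga9 among them. Without the share of all genes at that threshold, these 2 are not read as a change. In the authors' deposited table Itga9 was 0.44 ± 0.20 with C646. For Itga6 the 95% interval of the C646 fold change was -0.39 to 0.24, and for Itga7 it was -0.27 to 0.23. For Itga11 it was -0.52 to 0.23. These intervals exclude the values that DMSO gave for the same genes. The median over the 29 tested members was -0.05, and 0.00 over all tested genes.

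Comparisons between treatments were rebuilt as differences of the deposited fold changes, because no table compares them directly, and they share the libraries of the groups they have in common. I-CBP112 and DMSO differed past the test in 1 of 29 members, Lama5, beside 6.97% of all genes (4.31% higher, 2.66% lower). Lama5 was higher with I-CBP112 by 1.11 ± 0.37 on the log2 scale (95% interval 0.39 to 1.84, Benjamini-Hochberg adjusted p = 0.0414), and the call was lost when all genes with counts were adjusted together (adjusted p = 0.0937) or when the standard error was set to its upper bound (adjusted p = 0.517). For Itga6 the interval of I-CBP112 against DMSO was -0.39 to 0.23, for Itga11 -0.71 to 0.07 and for Lama4 -0.16 to 0.28. Intervals of this width do not show that the treatments act alike.

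C646 against DMSO, 2 groups that differed in agent and amount, gave 10 members past the test (34.5%), beside 15.8% of all genes. Itga1, Itga11, Itga4, Itga8, Lama4, Lamb2 and Lamc1 were higher with C646 (7 members, background 7.98%), and Itga6, Itga7 and Itgav were lower (3 members, background 7.86%). The difference was -1.34 ± 0.16 for Itga6 (adjusted p = 7.34e-15) and 1.04 ± 0.21 for Itga4 (adjusted p = 2.33e-05). For Itgav it was -0.34 (adjusted p = 0.0182). The Lamc1 call was lost when all genes with a p-value were adjusted together (adjusted p = 0.0817). With the standard error at its upper bound, Lamc1, Itga8, Itgav, Itga1 and Lamb2 no longer passed, with adjusted p of 0.337, 0.212, 0.256, 0.252 and 0.264. The inhibitors, at the same 5 µM and the same 7 days, differed in 6 members (20.7%), beside 9.80% of all genes. Itga6 and Itga7 were higher with I-CBP112 than with C646 (background 4.69%), by 1.26 ± 0.16 (adjusted p = 6.53e-13) and 0.55 ± 0.13 (adjusted p = 0.000307). Itga1, Itga11, Itga4 and Lama4 were lower (background 5.11%), by -0.75 ± 0.14, -1.23 ± 0.20, -0.67 ± 0.21 and -0.49 ± 0.11. At the upper bound of the standard error, Itga7, Lama4 and Itga4 no longer passed (adjusted p = 0.0540, 0.0555 and 0.317). Itga10 had a difference of -0.68 ± 0.25 (adjusted p = 0.0552) and did not pass.

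**Figure D4:**
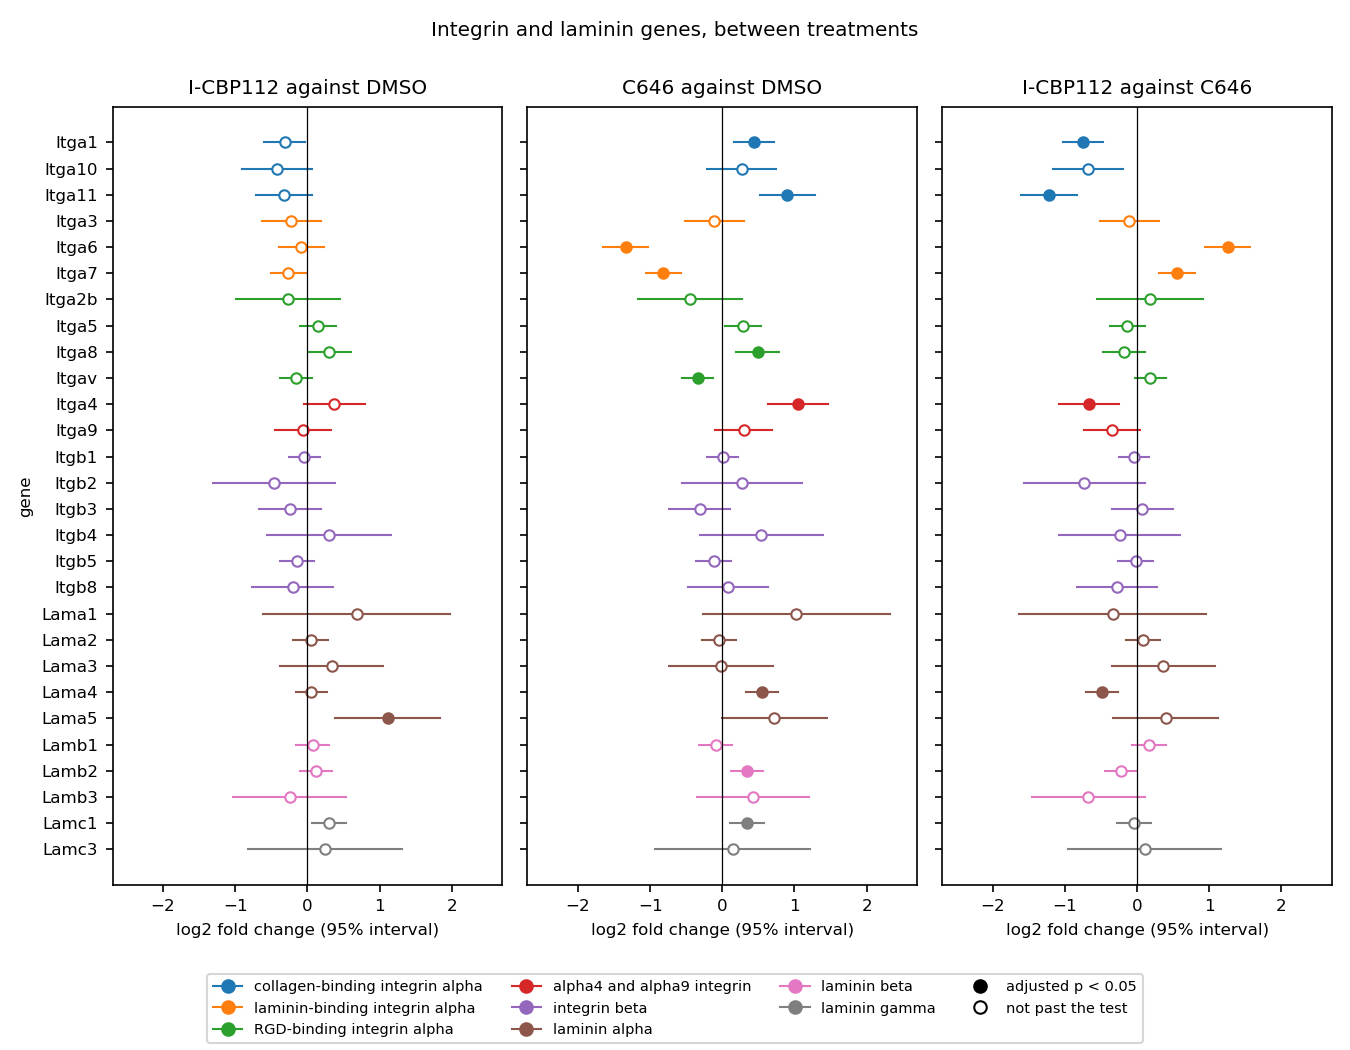
Difference of tested members between treatments on the log2 scale, with its normal 95% interval and colours by kind of subunit. Filled points have an adjusted p under 0.05: Lama5 in the comparison of I-CBP112 with DMSO, 10 members for C646 with DMSO and 6 for I-CBP112 with C646.

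Genes around the members were read from 4 lists. Their counts stand beside backgrounds, over all tested genes, of 8.07% higher and 7.90% lower with DMSO, and of 4.65% higher and 5.25% lower with I-CBP112. Of 17 other basement membrane genes, DMSO moved 2 higher and 2 lower (median -0.12), beside 16.0% of all genes in both directions together. Those higher were Col4a6, a collagen IV chain, at 0.94 ± 0.14 in the authors' deposited table, and Npnt, the nephronectin ligand of Itga8, at 0.58 ± 0.19. Col15a1, a collagen of basement membrane zones, was -1.21 ± 0.32 and Frem1, a matrix protein beneath epithelia, -0.54 ± 0.15 in the authors' deposited table. I-CBP112 moved 1 higher and 4 lower (median -0.06), the former being Col4a6 at 0.55 ± 0.14 in the authors' deposited table. Npnt was higher with DMSO than with I-CBP112, whose difference from it was -0.93 ± 0.19 (adjusted p = 0.000108).

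Of 13 other laminin receptors, DMSO moved 4 higher and 2 lower (median 0.19), and I-CBP112 moved 3 higher and 1 lower (median 0.03). Over all tested genes, 16.0% passed with DMSO and 9.90% with I-CBP112. Sgcb, a sarcoglycan of the muscle dystrophin complex, was 0.57 ± 0.12 with DMSO and 0.43 ± 0.12 with I-CBP112 in the authors' deposited table. Bcam, a laminin alpha 5 receptor of the immunoglobulin family, was -1.01 ± 0.20 and -0.75 ± 0.20 in the same order in the authors' deposited table.

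The adhesion complex that ties integrins to actin had 29 tested genes, of which DMSO moved 1 higher (background 8.07%) and 8 lower (background 7.90%), with a median of -0.25. Itgb1bp2, the muscle protein melusin that binds Itgb1, rose with DMSO by 1.82 ± 0.23 in the authors' deposited table, and with I-CBP112 by 1.16 ± 0.23. Those that fell with DMSO included Tgfb1i1 (-0.90 ± 0.21), Flna, the actin cross-linker filamin A (-0.76 ± 0.11), and Src (-0.60 ± 0.14) in the authors' deposited table. I-CBP112 moved 1 higher (background 4.65%) and 2 lower (background 5.25%), with a median of -0.11. Flna was higher with I-CBP112 than with DMSO by 0.52 ± 0.11 (adjusted p = 0.000124).

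Of 16 other integrin ligands, DMSO moved 0 higher (background 8.07%) and 6 lower (background 7.90%), with a median of -0.33. Fn1, fibronectin, was -1.21 ± 0.17 and Postn, periostin, -0.99 ± 0.12 in the authors' deposited table. The ligand of Itga4, Vcam1, was -0.58 ± 0.14 in the authors' deposited table. I-CBP112 moved 2 higher (background 4.65%) and 5 lower (background 5.25%), with a median of -0.12, and with Spp1, osteopontin, at 0.82 ± 0.16 and Postn at -0.83 ± 0.12 in the authors' deposited table. Fn1 was higher with I-CBP112 than with DMSO by 0.85 ± 0.17 (adjusted p = 3.44e-05), and Spp1 by 1.30 ± 0.16 (adjusted p = 3.52e-13). C646 moved 0 genes of any of the 4 lists by DESeq2, and 1 basement membrane gene and 1 adhesion complex gene had an unadjusted p under 0.05.

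**Figure D5:**
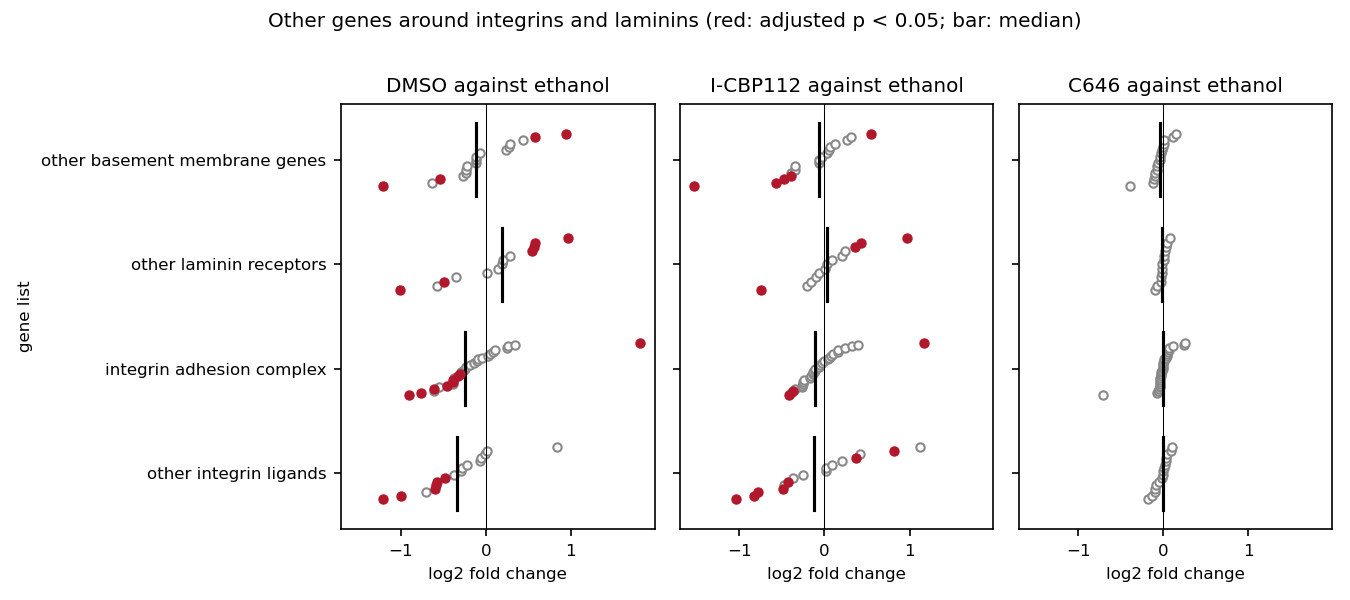
log2 fold change against ethanol of the tested genes in 4 lists around integrins and laminins, 1 point per gene, with red for an adjusted p under 0.05 and a bar at the list's median. With DMSO the adhesion complex has 8 red points below 0 and the integrin ligands 6, and the C646 panel has none.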

How the data were processed

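RNA was sequenced from 8 libraries of transduced mouse embryonic fibroblasts, 2 in each of 4 groups. Per the submitters' processing notes, reads were quantified with kallisto 0.43.1, DESeq2 was run, and the build was GRCm38.p5; library totals, and whether counting used strand, are not given in the sources used here. Deposited by the authors were 3 tables with 1 row per gene and no value per library. Each holds the authors' mean normalised count as a signal averaged over libraries, the authors' log2 fold change and its standard error on the log2 scale, the authors' Wald score, and the authors' p-value with its Benjamini-Hochberg adjustment. Precision is therefore that of the deposited standard errors, whose median over the tested genes was 0.185.

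The reference was read as ethanol, the group without a table. Of 2312 genes with a mean count under 0.16, 598 were lower in all 3 tables, and 550, 536 and 622 were higher in the DMSO, I-CBP112 or C646 table alone. Group levels were rebuilt from the mean count and the 3 fold changes, and divided by the longest GENCODE M21 transcript where genes were compared. Differences between treatments were divided by a standard error rebuilt with 1 dispersion per gene, and their normal p-values were adjusted over 14830 genes. The formula was within 1% of the deposited standard errors for 98.9% to 99.0% of tested genes. The dispersion was taken from these same standard errors, so the agreement is partly built in and does not check the comparisons between treatments. The test between treatments was also run on simulated counts, whose standard errors were built with the same formula from known dispersions. That run does not check how well the spread is estimated from 2 libraries per group. Python 3.11.15, numpy 2.4.6, pandas 2.3.3 and scipy 1.17.1 were used.

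Members with a mean count of 50 or more that passed in any of the 6 comparisons are given with their levels. For Itgav these are per kilobase. Up to 4 genes past the test with the largest fold change per list and comparison were eligible to be named. E030013I19Rik is named for its overlap with Itga8 and was chosen after its values were seen. The members and lists were chosen with earlier results of these data known. Alternatives were other scalings, count minimums, adjustment sets, standard errors, reference distributions and gene lengths. A few single genes are not reported here, and 1 of the 29 tested members is not plotted; all counts and shares include them.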

Additional observations from a re-analysis of the deposited data

How the results depend on the processing

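No paired analysis was possible because the deposited tables hold no value per library; for the same reason no fit without one of the libraries was run, and whether 1 library decides a value is unknown. Read against a t distribution with 4 degrees of freedom, the counts of members past the test were 0 in the 5 comparisons that had any. Asking for a change of at least 2-fold as well left 3 members for DMSO and 2 for I-CBP112 against ethanol, 2 for C646 against DMSO and 2 for I-CBP112 against C646. Adjusting over all genes with a p-value gave 0 for I-CBP112 against DMSO, and 9 for C646 against DMSO, without Lamc1. The upper bound of the standard error gave 0 for I-CBP112 against DMSO, 5 for C646 against DMSO and 3 for I-CBP112 against C646. Scaling to totals or centring on the median gene gave 10 members for DMSO against ethanol, with all 9 of the reported ones among them, and centring gave 7 for I-CBP112 against C646. These scalings shifted log2 fold changes by 0.04 or less, and the 33 single calls of members kept their side of the threshold under both scalings and under a mean count of 50 or more. For the 2-fold cut, the wider adjustment, the upper bound and the scalings, the share over all genes is not given here. Whether the members stood above that share in these settings is therefore not known. C646 against ethanol had 0 members past the test in every setting run, including adjustment over the genes of the DMSO table alone, a setting chosen after seeing the data. Of the genes of the 4 other lists, which had 17, 13, 29 and 16 tested genes, 12 passed for I-CBP112 against DMSO, beside 6.97% of all tested genes. The number was 7 with all genes adjusted and 4 at the upper bound of the standard error. For these 2 settings the share over all genes is not given here. No alternative reversed a direction of a called member, and none could have. Only the scalings altered a fold change, by 0.04 or less on the log2 scale, and the called members had larger changes than that. Direction was therefore not put to a test. Of the 10 highest members per kilobase, 9 were the same with the union of exons as the length.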

Other observations

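Of the 38 rows, 13 shared exon bases with another annotated gene, in 11 pairs on opposite strands and 5 on the same strand. Itga4 shared 1124 bases with Cerkl on the other strand, whose mean was 20.2 normalised counts. Itga10 shared 1739 bases on its own strand with Gm42957, whose mean was 18.0. The second Itgam row, ENSMUSG00000108596.1, carries the symbol Gm49368 in GENCODE M21 and shares 3450 exon bases with the first, so that the reads of the pair are uncertain.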
